A study of Mus musculus with 16 samples.

Results

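The comparison described here is between mdx/miR-133b-/- and mdx muscle, that is, dystrophic muscle without and with the microRNA miR-133b. Its members are 8 of the 16 libraries of the series, 4 labelled mdx/miR-133b-/- and 4 labelled mdx, grouped by the code that closes each title and read over every gene of the deposited table. Every library is RNA from whole tibialis anterior, a fast muscle of the lower leg, of mice at postnatal day 30. The mdx group is labelled mdx-/- for its genotype, the double mutant mdx-/- with miR-133b-/- added, and both therefore carry the Dmd mutation. The other 8 libraries, 4 Control of wild-type genotype and 4 miR-133b-/-, have dystrophin. They give side-by-side values and the interaction, and they also enter the fit from which the spread behind each p-value is estimated. The labels give neither strain nor sex, no design of the miR-133b allele, and no statement that libraries of 1 group stem from different animals. P-values therefore measure spread between libraries that could be technical. In 14 of the 16 samples a second label, the description, carries the code of another sample, so the grouping rests on the titles.

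The values are scaled reads, whole read counts multiplied by 1 factor per library. Reads in the listed genes numbered 2356990 to 3655796 in the 8 libraries, and the full depth is unknown. The listed genes are a selection: the mdx/miR-133b-/- and miR-133b-/- means differ by at least 1.72-fold in each, so the list was made with the double-mutant libraries. Counts below describe that list and not the transcriptome. The double-mutant libraries also enter the tested comparison, and its p-values do not allow for that selection. Dmd, Utrn and the miR-133b gene itself have no row, and no listed gene checks the genotype directly. The 8 libraries separated on principal component 1, which held 50.3% of their variance, with mdx between -10.8 and -9.18 and mdx/miR-133b-/- at 4.20, 8.08, 11.8 and 16.6 for libraries 1 to 4. On the log2 scale, the SD of a gene among the 4 replicates had a median of 0.21 in mdx and 0.38 in mdx/miR-133b-/-, so the double-mutant libraries were the more variable group.

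A microRNA guides a silencing complex to messenger RNAs whose 3' UTR pairs with its seed, bases 2 to 8 from its 5' end, and paired messages are translated less and degraded faster. miR-133b is expressed in skeletal muscle from a transcript that it shares with miR-206, and the closely related miR-133a, made from other loci, carries the same seed. The mdx mouse lacks dystrophin, the protein that ties the fibre's actin skeleton to the basement membrane, and its muscle passes through cycles of fibre death, inflammation and regeneration.

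The mature miR-133b-3p is shown because its seed, in capitals, defines the target sites counted later (RefSeq, GRCm38.p6, chr1:20682834-20682855, plus strand).
mmu-miR-133b-3p: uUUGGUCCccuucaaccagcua
Its 7-base site in a 3' UTR is GGACCAA, and GGACCAAA is the 8-base site with an A opposite base 1. Of the listed genes, 780 have an annotated 3' UTR. In the longest one annotated, 76 hold the 7-base site and 22 of these the 8-base site. The 5 genes that hold an 8-base site and passed the test described next were all higher in the double mutant, and their sites are shown for that reason, read 5′ to 3′ from GENCODE M21 transcripts with the paired bases in capitals.
Pi15: ttccccttataagaaGGACCAAA
Sntb2: acacctagtcctataGGACCAAA
Ypel2: acaagtttgggggtgGGACCAAA
Mme: ttacccaggaaacaaGGACCAAA
Edem1: gaaatttttgtaaaaGGACCAAA
A match of these letters is a description and does not show that the site is used.

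limma's test on log2(scaled reads + 1), with p-values adjusted by the Benjamini-Hochberg method over all listed genes and a threshold of 0.05, called 162 genes (19.5%) and left 669 uncalled. Of the called genes, 62 were higher in mdx/miR-133b-/- (7.46%) and 100 lower (12%), and 49 differed by more than 2-fold, 22 higher and 27 lower. The count of 162 ranged from 49 to 197 when 1 of the 8 libraries was left out, with 71, 56 and 84 without mdx 1, 3 and 4, 70 without mdx/miR-133b-/- 3 and the lowest without mdx/miR-133b-/- 4. The 4 mdx and the 4 double-mutant values did not overlap in 221 genes (26.6%), in 86 of them with the double mutant higher (10.3%) and in 135 with it lower (16.2%). Over the whole list the log2 fold change had a median of -0.04. The same contrast without the Dmd mutation, miR-133b-/- against Control, called 0 genes (0%), with 84 at an unadjusted p under 0.05. For mdx against Control the count was 550 (66.2%). The list was chosen on mdx/miR-133b-/- against miR-133b-/-, groups with and without the Dmd mutation. That choice favours genes that differ with the mutation, and both counts describe a selected list. They do not give the relative sizes of the Dmd and miR-133b differences. A count of 0 does not show that the groups were equal.

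**Figure D1:**
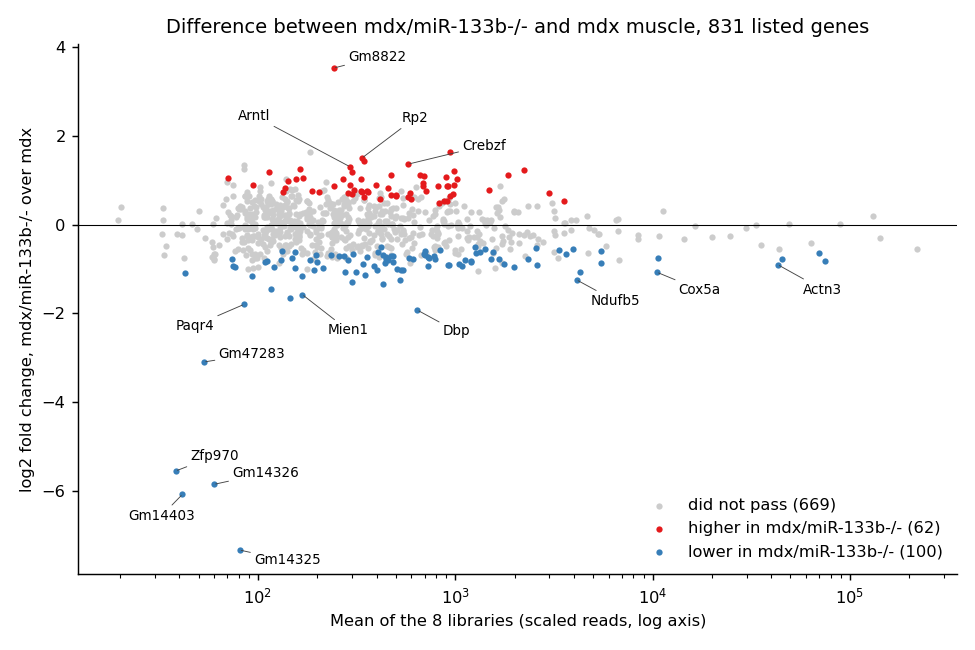
The mean of the 8 libraries in scaled reads (log axis) is plotted against the log2 fold change of mdx/miR-133b-/- over mdx for each listed gene; red points passed as higher (62), blue points passed as lower (100) and grey points did not pass. Most called genes lie within 2 log2 units of 0, and 4 zinc finger genes of chromosome 2 lie at -5.55 to -7.33.

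The largest differences were in 4 neighbouring genes of chromosome 2 that were close to absent from the double mutant. Zfp970 and the gene models Gm14403, Gm14325 and Gm14326 are annotated as protein coding within 492.6 kb, a stretch in which GENCODE M21 annotates 12 genes, 8 of them protein coding, and of which only these 4 are listed. Gm14325, Gm14326 and Zfp970 are named by the rule for the 3 largest interactions of each direction. Gm14403 was named after its values were seen, because the rule for rises and falls leaves out predicted models and means under 50. Genes of this family encode zinc finger proteins, a class of DNA-binding repressors that occurs in tandem arrays of near-identical copies, so the reads of one copy may have been counted at another.

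Zfp970 (GRCm38 chromosome 2, 177464733 to 177478129, plus strand) stood at 85.2, 98.5, 46.9 and 73.5 scaled reads in mdx 1 to 4. In each mdx/miR-133b-/- library it had 1 read, or 0.459 to 0.663 scaled reads. Over the groups that is 532 reads against 4, a 131-fold difference (95% exact interval 50.9 to 483, counting error only; log2 fold change -5.55, SE 0.38, adjusted p = 1.98e-09). The groups are far apart, while mdx overlapped the Control range of 72.6 to 143.

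Gm14325 (177831791 to 177840336, minus strand) had 248 to 316 reads in each mdx library, 1132 in all, and 0 in every mdx/miR-133b-/- library. Against a floor of 3 reads over the group it was at least 372-fold lower. Gm14403 (177498215 to 177509763, plus strand) had 580 reads in mdx and 2 in the double mutant, both in library 4, a 286-fold difference (78.7 to 2364). For Gm14326 (177935993 to 177957297, minus strand) the mdx libraries had 197 to 222 reads each and the double-mutant libraries 14 in all, a 58.5-fold difference (34.6 to 107), and 12 of the 14 reads came from mdx/miR-133b-/- 1. In each of these genes the highest double-mutant value lay far under the lowest mdx value.

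These 4 genes were present in all other libraries of the series. Their scaled values ranged from 56.0 to 257 in Control and from 34.3 to 441 in miR-133b-/-, and their log2 fold changes for miR-133b-/- over Control were 0.31 for Zfp970, -0.23 for Gm14403, 0.42 for Gm14325 and 0.52 for Gm14326, none of which passed. The interaction, which subtracts the difference between miR-133b-/- and Control from that between mdx/miR-133b-/- and mdx, passed for each (-7.75 to -5.85). Low values were found in the double-mutant libraries and not in the miR-133b-/- libraries. The list holds only genes whose means differ by at least 1.72-fold between these groups. A gene equally low in both would therefore not be listed. The labels give no strain, so the double-mutant genotype and the strain background of these mice cannot be told apart for these 4 neighbours. Removing the GC content and length trend described below left them at -7.48 to -5.67.

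**Figure D2:**
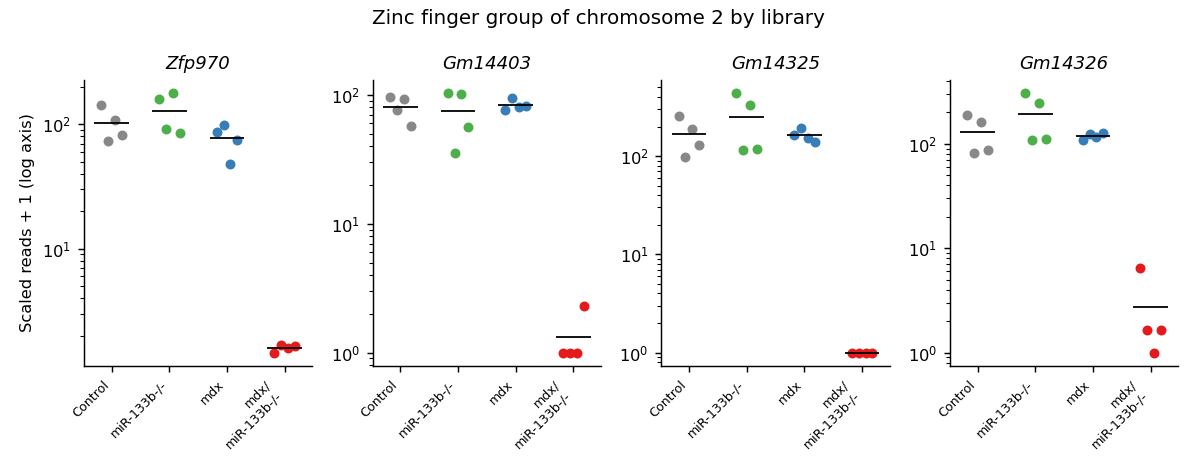
Scaled reads plus 1 (log axis) of Zfp970, Gm14403, Gm14325 and Gm14326 in each of the 16 libraries by group; points are libraries and bars are group means. The 4 mdx/miR-133b-/- libraries lie at or near the bottom of each panel, and the other 12 lie well above them.

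The processed pseudogene Gm8822 differed in the opposite direction and was named by the rule for its interaction. It lies on the X chromosome (81820384 to 81822730), 1.126 Mb from Dmd, and pseudogenes share reads with their parent genes, which makes its values uncertain. It stood at 41.2, 31.8, 31.5 and 45.5 scaled reads in mdx and 326, 401, 529.6 and 529 in mdx/miR-133b-/-. The rise was 11.5-fold (log2 3.53, SE 0.52, adjusted p = 0.000236), with no overlap. Control libraries lay at 138 to 166, so mdx was below Control and the double mutant above it, and the miR-133b-/- libraries ran from 15 in library 1 to 207.

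Gm47283, a model on the Y chromosome, showed 108, 64.8, 91.6 and 108 scaled reads in mdx against 5.04, 16.6, 28.9 and 3.29, a log2 fold change of -3.09 (SE 0.59, adjusted p = 0.00165). Control libraries themselves ranged from 24.6 to 220.1, and the call was lost with the GC and length trend removed (-2.01, adjusted p = 0.0648). The groups did not overlap, but the Control spread spans most of the difference. The labels give no sex, so genotype and the sex of the mice cannot be told apart for this gene.

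The circadian clock genes formed the next group. The clock is a loop in which Arntl (also called Bmal1) and its partner activate the Per genes and Dbp, whose products feed back. Of 22 genes on the clock list 6 are listed; 1 rose (against 7.46% of all listed genes), 2 fell (against 12%) and 3 did not pass, with a list median of -0.14 against -0.04 for all listed genes. The 3 that passed were Arntl, higher in the double mutant, and Dbp and Per2, lower. The labels give no time of day for the tissue collection.

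Arntl, the core activator, stood at 160.0, 146, 229 and 136 scaled reads in mdx 1 to 4 and at 368, 529, 289 and 485 in mdx/miR-133b-/- 1 to 4. All 4 double-mutant values lay above the highest mdx value and above Control (94.8 to 144) and miR-133b-/- (107 to 156). The list was chosen on mdx/miR-133b-/- against miR-133b-/-, so the gap to miR-133b-/- is not independent of that choice. The rise was 2.47-fold (log2 1.30, SE 0.23, adjusted p = 0.00132) and 1.22 with the GC and length trend removed (adjusted p = 0.0025). For miR-133b-/- over Control it was 0.12, and the interaction did not pass (1.18, adjusted p = 0.119).

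Dbp, a clock-controlled transcription factor of the PAR bZIP family, stood at 1085, 1073, 895 and 973 in mdx against 213, 188, 454 and 264 in mdx/miR-133b-/-. The mdx values fell inside the Control range of 824 to 1555, and every double-mutant value lay below all 12 other libraries. Among these, the miR-133b-/- libraries helped choose the list, so a gap to them is not independent of that choice. Dbp fell by 1.93 on the log2 scale (SE 0.29, adjusted p = 0.000236), or 3.80-fold. It was 0.18 in miR-133b-/- over Control, and the interaction passed (-2.11, adjusted p = 0.00641).

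Per2, a repressor of the loop, stood at 253, 246, 329 and 269 against 81.2, 91.4, 231 and 208 and fell by 0.98 (SE 0.33, adjusted p = 0.0439). Its groups did not overlap, though mdx/miR-133b-/- 3 and 4 came near the mdx values. The Per2 call was lost without any one of mdx 1, 2, 3 or 4 or double-mutant library 1 or 2 (-1.03 to -0.73, adjusted p = 0.0649 to 0.123), and with the GC and length trend removed (-0.94, adjusted p = 0.0956). It was also lost with only the 8 libraries in the fit (adjusted p = 0.0666) and with no variance trend (0.0622).

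The remaining clock genes gave no call. Usp2, a clock-controlled ubiquitin protease, stood at 0.16 (95% interval -0.17 to 0.49). Hlf, a relative of Dbp, had a log2 fold change of -0.38 (-1.13 to 0.37) and Ciart, a repressor of the loop, 0.10 (-0.90 to 1.09), on values of only 13.3 to 61.0 scaled reads. Dbp thus fell, while Hlf and Ciart overlapped between the groups. The intervals of Hlf and Ciart are wide, and whether they moved differently from Dbp was not tested.

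Promoters were examined for the elements through which these factors act on one another. Of the 6 clock genes, 5 had at least 1 RefSeq promoter window (GRCm38.p6), from 250 bases before to 50 after a start. Motifs were searched on both strands of 32851 such windows. The E-box CACGTG, on which Arntl itself acts, occurs in 7.15% of windows, and among the clock genes in that of Ciart (chr3:95882179-95882478, minus strand) with 3 matches. The match farthest from the start is shown in capitals because Ciart carries E-boxes and did not pass, while Dbp, whose window holds none, fell.
Ciart: gcatctagagtCACGTGttgccggtaag
The D-box TTATGNAA, bound by Dbp (3.38% of windows), occurred in none of the clock windows. The absence of these letters says nothing of elements outside the windows.

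**Figure D3:**
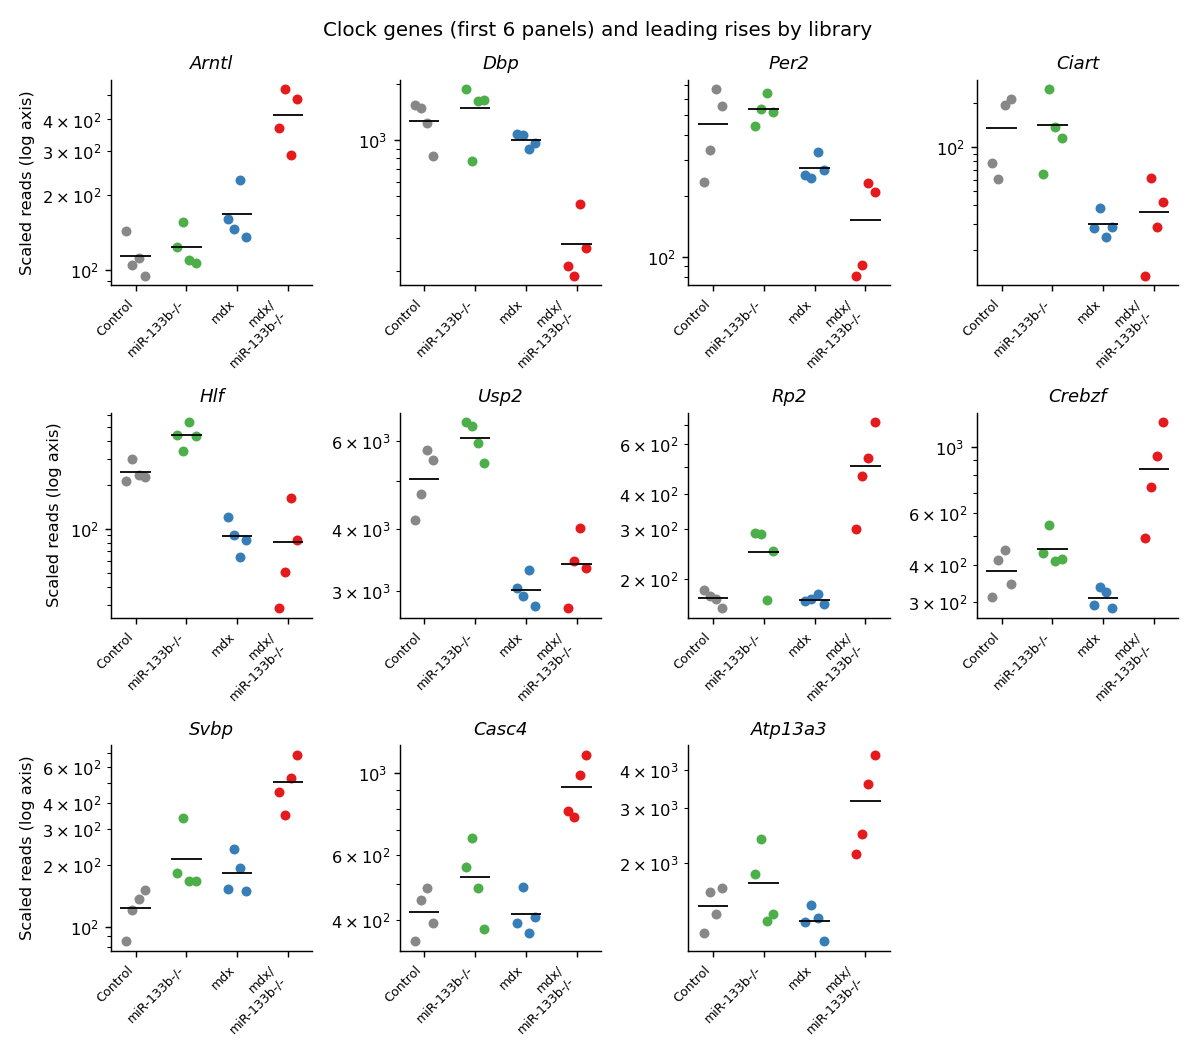
Scaled reads (log axis) in each of the 16 libraries for 6 clock genes (first 6 panels) and for Rp2, Crebzf, Svbp, Casc4 and Atp13a3; points are libraries and bars are group means. Arntl lies above and Dbp below all other libraries in mdx/miR-133b-/-, while Ciart, Hlf and Usp2 overlap between mdx and mdx/miR-133b-/-. The list was chosen on mdx/miR-133b-/- against miR-133b-/-, so gaps between these groups are not independent of that choice.

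Among other genes that were higher, the largest rise by the naming rule was in Rp2, which encodes a GTPase-activating protein of the primary cilium. Rp2 was tightly grouped in mdx, at 168, 169, 177 and 163 scaled reads, and reached 301, 462, 534 and 719.6 in the double mutant. That is a 2.83-fold rise (log2 1.50, SE 0.23, adjusted p = 0.000301). All 4 values lay above Control (157 to 183) and miR-133b-/- (169 to 292), though a gap to miR-133b-/- is what the list was chosen on. Rp2 has a GC content of 35.9%, near the low end of the list, and its log2 fold change was 0.94 with the trend removed (adjusted p = 0.00258).

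Svbp, the small partner that vasohibins need to remove the terminal tyrosine of tubulin, went from 153, 238, 193 and 149 to 452, 349, 532 and 689. This 2.72-fold rise (log2 1.44, SE 0.27, adjusted p = 0.00153) became larger, at 1.96, once the GC and length trend was removed (adjusted p = 0.000935). Svbp is the short, GC-richer kind of gene (832 bases, 53.6% GC) that otherwise tended to be lower. The other 2 listed genes of the tubulin list did not pass: Vash2, a vasohibin, stood at -0.58 (adjusted p = 0.221) and Tubb6 at -0.41 (0.558).

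Crebzf, a bZIP transcriptional regulator, went from 294, 338, 325 and 286 to 493, 734, 926 and 1210.1, a 2.57-fold rise (log2 1.36, SE 0.23, adjusted p = 0.000588) that was 1.41 with the trend removed. Casc4, a Golgi membrane protein, stood at 393, 491, 369 and 409 against 789.5, 760.0, 985 and 1121 (log2 1.13, SE 0.20, adjusted p = 0.00114), and its 3' UTR holds a 7-base seed match. Atp13a3, a polyamine transporter of the P5 ATPase family, rose 2.35-fold, from a range of 1113 to 1464 to one of 2127 to 4477 (log2 1.23, SE 0.23, adjusted p = 0.00165). None of these 3 overlapped between the groups, and Rp2, Svbp, Crebzf, Arntl, Casc4 and Atp13a3 kept their calls under every alternative run.

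Rises that rested on fewer libraries included 2 genes of tissue remodelling and inflammation in which 1 library stood apart. Lox, the enzyme that crosslinks collagen, stood at 560.3, 437, 731 and 427 in mdx and at 842, 792, 1142 and 2937 in the double mutant (log2 1.22, SE 0.34, adjusted p = 0.0216). Its call was lost without mdx 2, mdx 4 or double-mutant library 4 (0.80 to 1.13, adjusted p = 0.0506 to 0.0794) and with the trend removed (0.93, 0.0735). For Il1r1, the receptor of interleukin 1, the values were 228, 269, 372 and 247 against 415, 459, 527 and 1262 (1.12, SE 0.31, adjusted p = 0.0216). That call was lost without mdx 1, mdx 4 or double-mutant library 4 (0.76 to 1.07, adjusted p = 0.0518 to 0.0833) and with the trend removed (0.78, 0.113). In both genes the groups did not overlap, and mdx/miR-133b-/- 4 was more than 2-fold above its group's other libraries.

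Ccl6, a chemokine of myeloid cells, rose by 1.20 (SE 0.38, adjusted p = 0.0371), from a range of 132 to 280.3 in mdx to one of 290.2 to 596. It lost its call without mdx 1, 2 or 4 or double-mutant library 3 or 4 (1.01 to 1.25, adjusted p = 0.0637 to 0.123). Pim1, a serine/threonine kinase induced by cytokines, rose by 0.82 (adjusted p = 0.045) and by 1.12 with the trend removed (0.0263). Its values were 92.9, 111, 113 and 78.6 against 162, 181, 139.8 and 219, and the call was lost when any one of the 8 libraries was left out (0.70 to 0.92, adjusted p = 0.0506 to 0.139). It was also lost with upper quartile factors (0.82, adjusted p = 0.0591) or relative log expression factors (0.77, 0.0737) of the listed genes.

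Among the genes that were lower, Paqr4, a membrane protein of the progestin and adipoQ receptor family, followed Dbp. It ranged from 124 to 142 in mdx and stood at 46.3, 28.5, 30 and 48.1 in mdx/miR-133b-/-, so it fell by 1.80 (SE 0.28, adjusted p = 0.000301), or 3.47-fold. Paqr4 fell although its 3' UTR holds a 7-base match to the seed. Mien1, a small membrane-anchored protein, stood at 266, 264, 232 and 241 against 114, 72.2, 72.2 and 81.0 (-1.58, SE 0.24, adjusted p = 0.000287). Neither gene overlapped between the groups, and both kept their calls with the trend removed, at -1.37 and -1.01.

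Narfl and Isca2 act in building iron-sulfur clusters, the first in the cytosolic pathway and the second in mitochondria. Narfl went from 413, 398, 457 and 423 to 253, 190.2, 149.6 and 119 (-1.30, SE 0.24, adjusted p = 0.00144). Isca2 went from 463, 458, 523 and 461 to 273, 269.7, 156 and 189 (-1.14, SE 0.23, adjusted p = 0.00264). In both genes every double-mutant value lay under every mdx value, and the trend-removed log2 fold changes were -1.05 and -1.03.

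Sdr39u1, a short-chain dehydrogenase, fell 2.53-fold, from a range of 529 to 744 to one of 176 to 355 (log2 -1.34, SE 0.25, adjusted p = 0.00155). Tmem267, a transmembrane protein, fell by 1.46 (SE 0.42, adjusted p = 0.024) and by 1.80 with the trend removed, and lost its call without mdx 2, mdx 3 or double-mutant library 2 (-1.39 to -1.28, adjusted p = 0.0507 to 0.0741). Fkbp3, a nuclear prolyl isomerase, fell by 0.95 (adjusted p = 0.0191) and by 1.54 with the trend removed (0.00187), from a range of 2208 to 3025 to one of 1201 to 1491. Its call was lost without mdx 3 or double-mutant library 3 or 4 (-0.91 to -0.88, adjusted p = 0.0521 to 0.06). Tmem267 and Fkbp3 are AT-rich, long transcripts that lay against the trend, and removing it enlarged both differences. Them6, a thioesterase-like protein, fell by 1.17 (adjusted p = 0.0401), and the call was lost without mdx 1, 2, 3 or 4 or double-mutant library 3 or 4 (-1.20 to -1.01, adjusted p = 0.07 to 0.126), with the trend removed (-0.54, 0.327) and with no variance trend (0.052).

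Nuclear genes of the mitochondrial respiratory chain, which makes ATP from oxygen and nutrients, lay lower together. Of 22 genes on the respiratory chain list 4 are listed; Cox5a and Atp5a1 fell and Ndufa9 (-0.42) and Ndufs1 (-0.22) did not pass. Chosen by symbol after the values were seen, 13 listed nuclear genes belong to complexes I, III, IV and V, their assembly or the mitochondrial ribosome. All 13 had log2 fold changes below 0, from -1.24 to -0.22 with a median of -0.83, and 9 of them fell, against 12% of all listed genes. Their median GC content was 52.1%, above the 49.1% of the list, and 4 passed as lower with the trend removed.

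Cox5a, a subunit of cytochrome c oxidase, stood at 12587, 13501, 15215 and 15489 scaled reads in mdx and at 7456, 8948, 5356 and 5713 in mdx/miR-133b-/-. It fell by 1.07 (SE 0.22, adjusted p = 0.00399) and by 1.20 with the trend removed. Ndufb5, a subunit of complex I, went from 4971, 5212, 6919 and 6072 to 2839, 2520.0, 2074 and 2331 (-1.24, SE 0.22, adjusted p = 0.000948), and by -1.27 with the trend removed. Both genes have a GC content under 49% and are among those whose difference did not shrink with the trend, and in both the groups were apart.

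The others leaned on the trend or on single libraries. Cox14, an assembly factor of complex IV, stood at 622, 754, 840.5 and 722 against 449, 284, 217 and 327 (-1.24, adjusted p = 0.024). It lost its call without mdx 3 or double-mutant library 3 or 4 (-1.27 to -1.07, adjusted p = 0.0548 to 0.0745) and with the trend removed (-0.64, 0.233). Atp5a1, the alpha subunit of ATP synthase, fell by 0.75 (adjusted p = 0.0242) and stood at -0.50 with the trend removed (0.114). Its call was lost without mdx 3 or 4 or double-mutant library 3 or 4 (-0.73 to -0.63, adjusted p = 0.0575 to 0.0851). Mrpl30, of the mitochondrial ribosome, fell by 1.02 in both fits, though its call was lost without any one of 6 libraries, mdx 1, 3 and 4 and mdx/miR-133b-/- 2, 3 and 4 (-1.11 to -0.87, adjusted p = 0.0583 to 0.112). Ndufs8, a complex I subunit, kept its call without each library in turn (-0.88, SE 0.20, adjusted p = 0.00712) but stood at -0.37 with the trend removed. In Atp5a1, Ndufs8 and Ndufa10, mdx/miR-133b-/- 3 and 4 were the lowest libraries, and these 2 also had the steepest GC trends.

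Transcripts made from the mitochondrial genome did not follow. The 9 listed mt- genes took 28.9% ± 4.93 of the listed reads in mdx/miR-133b-/- (22.4 to 34.3) and 25.2% ± 1.76 in mdx (23.0 to 27.3; SD, n = 4 each). The difference of 3.74 percentage points did not pass an exact two-sided permutation test over libraries (p = 0.229; the smallest p possible is 0.0286). Without mdx/miR-133b-/- 1 it was 5.91 points, at the smallest p that such a comparison gave (exact p = 0.0286). The scaled total of all listed genes was lower in mdx/miR-133b-/- (1.47e+06 to 1.60e+06) than in mdx (1.745e+06 to 2.02e+06). A higher share therefore need not mean more mt- reads. The 8 of the 9 other than mt-Tw had log2 fold changes from -0.54 (mt-Nd4) to 0.90 (mt-Atp6).

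mt-Tw, the mitochondrial tryptophan tRNA (position 4950 to 5016 of the mitochondrial genome), rose from 397, 448, 483 and 406 to 567, 1206, 1092 and 966. Its log2 fold change was 1.09 (SE 0.21, adjusted p = 0.00206), and 1.77 with the trend removed. At 67 bases it lies far below the list's median length of 3431 bases, where the linear trend is least certain. mt-Atp6 rose by 0.90 (SE 0.25, adjusted p = 0.0196) on low values, 45.6, 56.9, 86.1 and 74.7 against 105, 156, 111 and 115, and lost its call without mdx 1 (0.74, adjusted p = 0.0732) and with the trend removed (0.83, 0.0688). The miR-133b-/- to Control difference of mt-Atp6 was of the same size, 0.93, and its interaction was -0.03. mt-Nd4 stood at -0.54 (adjusted p = 0.112) and fell by 0.82 once the trend was removed (0.0274).

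Genes of fast fibres, the glycolytic and powerful fibre type that makes up most of the tibialis anterior, lay lower. Of 15 genes on the fast fibre list 4 are listed, and all 4 had separate groups with the double mutant lower, against 16.2% of all listed genes. Actn3, Pvalb and Ckm fell, against 12%, and Myh4 did not pass. Actn3, an actinin of the fast Z-disc, stood at 61919.9, 51899, 68593 and 42981 against 34324, 28518, 25765 and 30819.8 (-0.90, SE 0.23, adjusted p = 0.0155). Pvalb, the calcium buffer parvalbumin, fell by 0.78 (adjusted p = 0.024) and Ckm, muscle creatine kinase, by 0.63 (0.027). Myh4, the myosin of the fastest fibres, had 200838 to 343884 scaled reads in mdx and 146677 to 198202 in the double mutant (-0.56, 95% interval -1.09 to -0.02, adjusted p = 0.138).

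None of the 4 fast fibre genes passed with the GC and length trend removed, where they stood at -0.58 to -0.41 (adjusted p = 0.0952 to 0.206), and their median GC content was 53.4%. Actn3 lost its call without mdx 3 (-0.80, adjusted p = 0.06), Pvalb without mdx 1 or 3 or double-mutant library 3 or 4 (-0.78 to -0.65, 0.0619 to 0.0906) and Ckm without mdx 1, 3 or 4 or double-mutant library 3 or 4 (-0.66 to -0.55, 0.05 to 0.0906). For miR-133b-/- over Control the list median was -0.23. In whole muscle, fewer fibres of a type and less RNA of that type per fibre cannot be told apart. The 4 listed slow fibre genes (of 10) gave no call, but all 4 lay below 0, with a median of -0.37. With the trend removed the medians were -0.46 for slow and -0.52 for fast fibre genes.

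**Figure D4:**
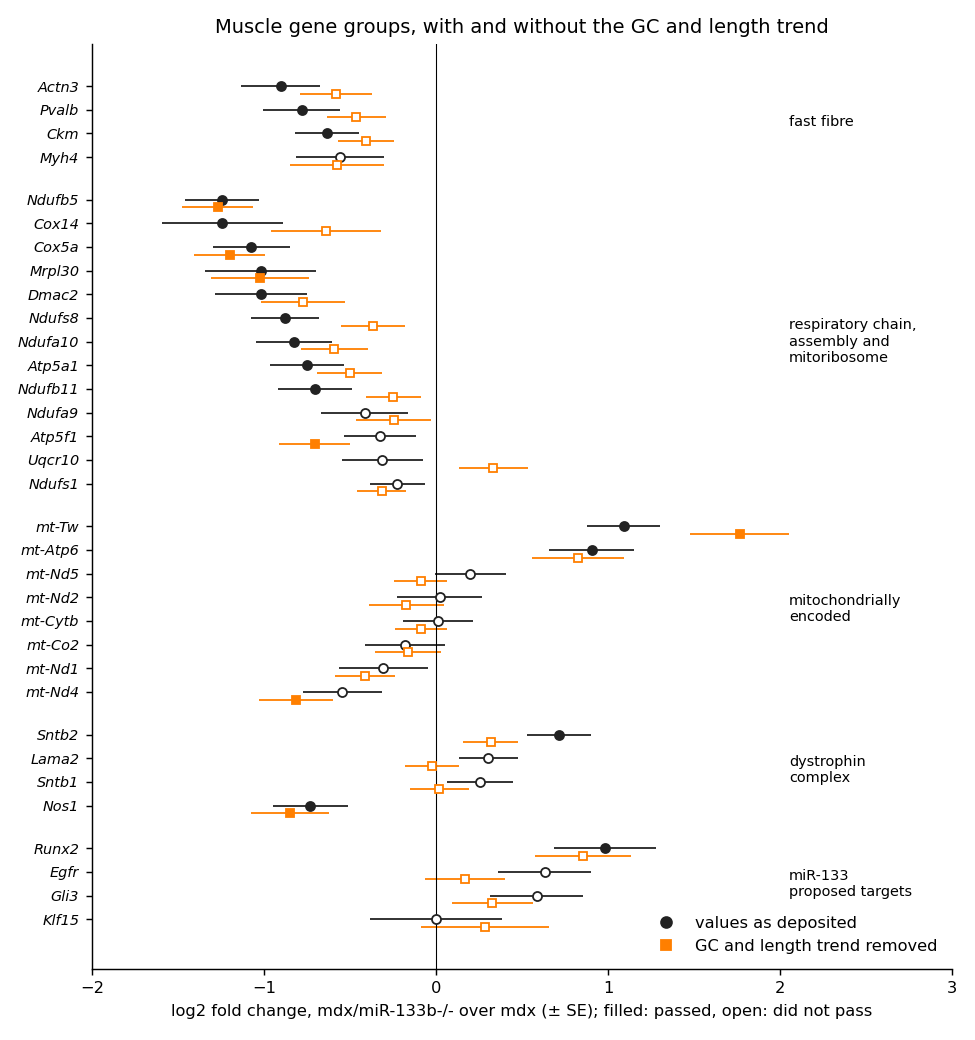
The log2 fold change of mdx/miR-133b-/- over mdx (± SE) for muscle gene groups, as deposited (black circles) and with each library's GC and length trend removed (orange squares); filled symbols passed and open symbols did not. Fast fibre genes are filled only in black, whereas Ndufb5, Cox5a, Mrpl30, mt-Tw and Nos1 are filled in both.

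Genes of the dystrophin complex, which in these mice lacks its dystrophin core, moved in both directions. Of 14 on the list 4 are listed. Nos1, neuronal nitric oxide synthase, which dystrophin anchors at the fibre membrane, stood at 853, 707, 938 and 1167 in mdx against 519, 628, 577 and 461 (-0.73, SE 0.22, adjusted p = 0.0288). It fell by 0.85 with the trend removed (0.0301), yet its call was lost without mdx 1, 3 or 4 or double-mutant library 3 or 4 (-0.76 to -0.61, adjusted p = 0.0527 to 0.0887). Sntb2, a syntrophin that docks signalling proteins on the complex, rose 1.64-fold, from 452, 486, 391 and 458 to 658, 768, 700.0 and 807 (log2 0.71, SE 0.18, adjusted p = 0.0166). The Sntb2 call was lost without mdx 3 or double-mutant library 4 (0.65 to 0.67, 0.0501 to 0.06) and with the trend removed (0.32, 0.233). Both genes had separate groups; Lama2, a laminin chain (0.30), and Sntb1 (0.26) did not pass.

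Of 16 genes on a list of proposed miR-133 targets 4 are listed, all at or above 0 with a median of 0.61. Runx2, a transcription factor of bone that is also expressed in regenerating muscle, stood at 84.1, 83.8, 88.8 and 120.1 in mdx and at 143, 159, 228 and 226 in the double mutant. It rose 1.98-fold (log2 0.98, SE 0.30, adjusted p = 0.0303), with no overlap. Without mdx 1, 2 or 3 or double-mutant library 3 or 4 the call was lost (0.88 to 0.96, adjusted p = 0.0649 to 0.09), as it was with the trend removed (0.85, 0.0694). Egfr, a growth factor receptor, stood at 0.63 (95% interval 0.06 to 1.20, adjusted p = 0.114), Gli3, a transcription factor of the hedgehog pathway, at 0.59 (0.02 to 1.15, 0.14) and Klf15, a metabolic transcription factor, at 0.00 (-0.80 to 0.80). Runx2 was 0.60 and Egfr 0.09 in miR-133b-/- over Control, without passing.

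Seed matches were set beside the differences as a description. Of the 22 genes with the 8-base site, 17 lay above 0, their median was 0.45, and 5 rose and none fell. That is 22.7% higher, against 7.46% of all listed genes, and 16 of the 22 lay above 0 with the trend removed, where their median was 0.17 and none passed. Among all 76 genes with the 7-base site, 9 rose (11.8%) and 5 fell (6.58%), with a median of 0.08, and among the 704 genes with a 3' UTR but no match 48 rose and 92 fell, with a median of -0.07. Genes with the 8-base site had a median length of 5265 bases and a GC content of 46.7%, against 3431 bases and 49.1% in the list. The part of length and GC content in the seed counts was not tested.

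Of the 5 genes whose 8-base sites are printed above, Pi15 rose most. Pi15 encodes a secreted protein of the CAP family, and it stood at 127, 100.3, 56.3 and 103 in mdx and at 222, 277, 265 and 151 in mdx/miR-133b-/- (log2 1.26, SE 0.32, adjusted p = 0.0145). Its call was lost without mdx 3 (1.02, adjusted p = 0.06) and with the trend removed (0.57, 0.239). Ypel2 rose by 0.78 on the log2 scale (adjusted p = 0.0376), from 254, 243, 172 and 235 to 335, 407, 424 and 376. Mme, the membrane peptidase neprilysin, rose by 0.68 (adjusted p = 0.0449), from 272, 188, 235 and 227 to 331, 343, 456 and 348.

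Edem1, which directs misfolded glycoproteins of the endoplasmic reticulum to degradation, stood at 432, 433, 513 and 416 against 499, 683, 736 and 908 (0.63, adjusted p = 0.0467). Its lowest double-mutant value lay under its highest mdx value, whereas Pi15, Ypel2, Mme and Sntb2 had separate groups. Ypel2, Mme and Edem1 each lost their call without any one library except mdx/miR-133b-/- 1 (Ypel2 0.65 to 0.84, Mme 0.57 to 0.76, Edem1 0.50 to 0.69; adjusted p = 0.054 to 0.171). For miR-133b-/- over Control the 5 stood at 0.09 (Pi15), -0.12 (Sntb2), 0.06 (Ypel2), 0.48 (Mme) and -0.11 (Edem1), and none passed.

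Listed genes near Mir133b were described as well. Gm28653, a long non-coding RNA (chromosome 1, 20669882 to 20684298, plus strand), spans both Mir206 and Mir133b in the annotation. It stood at 289.8, 526, 485 and 241 in mdx and at 502, 294, 439 and 541 in the double mutant (0.24, 95% interval -0.73 to 1.22, adjusted p = 0.766), so the groups overlapped. Its level is not that of the microRNA and checks no deletion. Within 20 Mb of Mir133b 11 genes are listed; Pi15 and Il1r1 rose, Mrpl30 fell and the other 8 did not pass, against 19.5% called in the whole list.

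Lists that report on inflammation, fibrosis and regeneration, the tissue response to dystrophin loss, are set here beside the 19.5% called in the whole list. None of the 13 listed macrophage genes (of 22), 7 antigen presentation and complement genes (of 14), 8 regenerating fibre genes (of 15), 5 neuromuscular junction genes (of 12), 3 fibro-adipogenic progenitor genes (of 9) or 2 tendon genes (of 10) passed. Of 11 listed extracellular matrix genes (of 22) only Lox did. The medians were -0.20 for macrophage, -0.58 for antigen presentation, -0.28 for regenerating fibre, 0.10 for neuromuscular junction and -0.10 for matrix genes, against -0.04 for all listed genes. Csf1r, the receptor that macrophages need to survive, stood at -0.69 (adjusted p = 0.185), the class II gene H2-Aa at -0.98 (0.0842), the embryonic myosin Myh3 at -0.70 (0.469) and Runx1, a marker of denervated muscle, at 0.85 (0.0766).

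The summed values of these lists spread more between double-mutant than between mdx libraries. The macrophage genes summed to 6776 to 10558 scaled reads in mdx and to 3959 to 13479.7 in mdx/miR-133b-/-, and the matrix genes to 47595 to 48744 and 33993 to 62361. The antigen presentation sum was 2976 to 5226 in mdx and 1867 to 5015 in the double mutant. The fibro-adipogenic genes summed to 2544 to 3182 and 2478 to 3434, and the tendon genes to 1642 to 2046 and 1085 to 2944. The sums of all 5 lists overlapped between the groups, and the part of their variation in other results was not tested. A p that misses the threshold does not show that these genes were equal.

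Among the remaining lists, Ighm, the heavy chain of immunoglobulin M and the only listed gene of 10 on the B and plasma cell list, fell by 1.64 (SE 0.55, adjusted p = 0.0419). Its values were 312, 166, 301 and 102 in mdx and 85.7, 38.4, 122 and 39.5 in mdx/miR-133b-/-, which overlap, and its call was lost without mdx 1, 2 or 3 or double-mutant library 2 or 4 (-1.73 to -1.41, adjusted p = 0.0626 to 0.133). The Ighm call was also lost with the trend removed (-1.37, adjusted p = 0.121), with limma-voom (-1.59, 0.101) and with no variance trend (0.0636). Got1, the cytosolic aspartate aminotransferase, fell by 0.77 (adjusted p = 0.0127), and its call was lost without mdx 3 (-0.66, adjusted p = 0.0542). It was the only call among 5 listed genes of amino acid synthesis and transport. Pvalb was the only one of 4 listed calcium handling genes. None of the 4 glycolysis, 3 tricarboxylic acid cycle, 2 atrophy and growth, or the single listed fatty acid, endothelial, T cell, Schwann cell and translation factor genes passed. In all, 26 of 36 lists have a listed member, and the satellite cell, neutrophil, adipocyte, pericyte and smooth muscle, erythrocyte, cell cycle, immediate early, ribosomal protein, proteasome and calcineurin lists have none and were not analysed here.

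The differences followed base composition and length. Genes called higher had a median GC content of 43.6% and a median transcript length of 4806 bases, and genes called lower 53.7% and 2309 bases. In the 208 genes with the least GC the median log2 fold change was 0.30, with 38 higher and 10 lower. The next 208 and 207 genes in GC order stood at 0.08 (16 and 11) and -0.16 (5 and 29), and the 208 with the most GC at -0.43 (3 and 50). Across the listed genes, which share libraries and are not independent, the Spearman correlation of the log2 fold change with GC content was -0.49 and with length 0.36.

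The trend belonged to individual libraries to different degrees. Its slope, in log2 units per 10 points of GC, was 0.12, 0.00, 0.13 and 0.02 in mdx 1 to 4 and -0.06, -0.20, -0.45 and -0.49 in mdx/miR-133b-/- 1 to 4. All 4 double-mutant slopes lay below all 4 mdx slopes, a difference of -0.37 (exact two-sided permutation p = 0.0286, the smallest possible with 4 against 4). Slopes with length, in log2 units per doubling, were 0.19 to 0.24 in the double mutant and -0.02 to 0.09 in mdx (difference 0.18, exact p = 0.0286). Of the other libraries miR-133b-/- 1 had a GC slope of -0.28, and the remaining 7 lay between 0.03 and 0.26. The list was selected with the double-mutant libraries, so the slopes describe listed genes only, and RNA quality, library preparation and genotype cannot be told apart as their source.

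**Figure D5:**
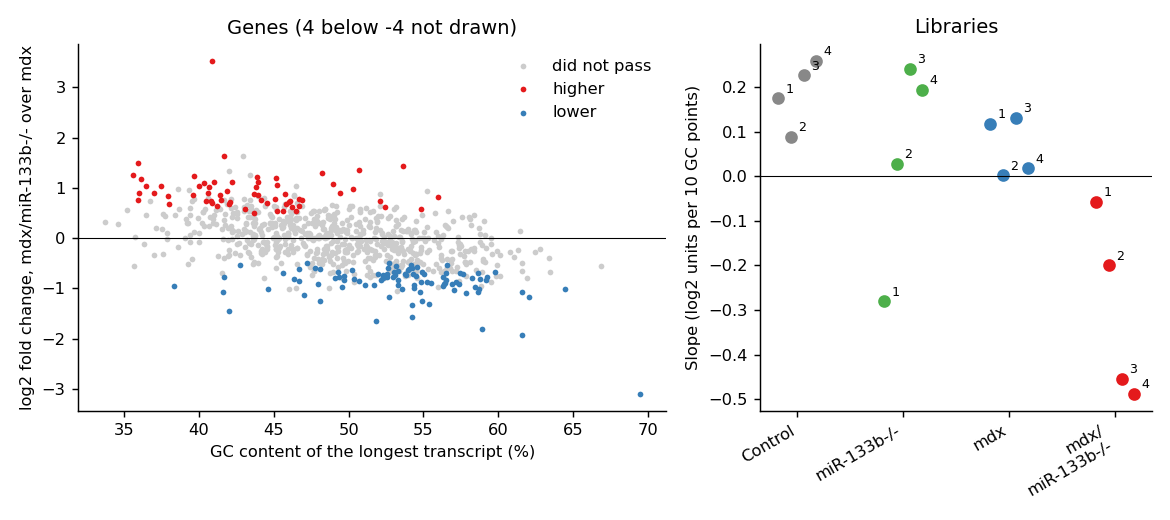
Left, the GC content of each gene's longest transcript (%) against its log2 fold change, mdx/miR-133b-/- over mdx, coloured by call (4 genes below -4 are not drawn); right, the slope of each library's deviations on GC content (log2 units per 10 points), numbered by replicate. Called genes shift from higher to lower with rising GC content, and the 4 mdx/miR-133b-/- slopes, -0.49 to -0.06, lie below those of mdx.

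With each library's linear trend on GC content and log2 length removed, 55 genes passed (6.62%), 20 higher (2.41%) and 35 lower (4.21%). Of the 162 genes, 49 were among these 55, 19 higher and 30 lower, and 43 higher and 70 lower calls were lost. All 162 kept their sign, and their median absolute log2 fold change went from 0.83 to 0.54. The correction removes any difference that runs along GC content or length, whatever its source. Passing only after it were Atp5f1, Glrx2, Osgepl1, Fam174a and mt-Nd4, which were lower, and Nisch, which was higher.

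Of the 162 genes, 28 passed both with the trend removed and with each of the 8 libraries left out in turn. The 11 higher ones were Gm8822, Rp2, Svbp, Crebzf, Arntl, Atp13a3, Casc4, mt-Tw, Zfp36l1 (an RNA-binding protein that speeds decay of AU-rich messages), Serp1 (a stress protein of the endoplasmic reticulum) and Ugcg (glucosylceramide synthase). The 17 lower ones were Gm14325, Gm14403, Gm14326, Zfp970, Dbp, Paqr4, Mien1, Sdr39u1, Narfl, Ndufb5, Isca2, Cox5a, Tmem201 (a protein of the inner nuclear membrane), Tpd52l1, Mylk2 (the myosin light chain kinase of skeletal muscle), Sord (sorbitol dehydrogenase) and Nt5c3 (a pyrimidine nucleotidase). The smallest absolute log2 fold change among them was 0.77. They were singled out by these 2 criteria after the values were seen.

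Whether the difference between libraries with and without the miR-133b-/- label was itself different in dystrophic and dystrophin-containing muscle was read from the interaction, which called 8 genes (0.963%), with 172 at an unadjusted p under 0.05. That contrast contains the difference between mdx/miR-133b-/- and miR-133b-/-, on which the list was chosen. Its counts and p-values are therefore not those of an unselected list. Gm8822 was higher, and Gm14325, Gm14326, Zfp970, Gm14403, Gm47283, Dbp and Gtf3a were lower. Gtf3a, a transcription factor of 5S ribosomal RNA genes, stood at 282, 273, 343 and 249.8 in mdx and at 228, 205, 153 and 134 in the double mutant, but at 349.8 to 502 in miR-133b-/- against 275 to 332 in Control. Its interaction of -1.21 (adjusted p = 0.0479) was lost without mdx 1, 2, 3 or 4 or double-mutant library 3 or 4 (-1.27 to -1.08, adjusted p = 0.0604 to 0.143), and the other 7 were kept without each of the 8 libraries.

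Set side by side, the 62 genes higher in the double mutant had a median log2 fold change of 0.86 over mdx and of 0.12 in miR-133b-/- over Control, where 46 of them lay above 0. The 100 lower genes had medians of -0.83 and -0.06, and 61 of them lay below 0 in miR-133b-/- over Control. The sign was the same in 441 of all listed genes and opposite in the other 390. The 2 contrasts share no library, but the list was chosen on the groups at the head of each, so no test was made.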

How the data were processed

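RNA of whole tibialis anterior was isolated with an Aurum kit and treated with DNase, per the labels' protocols. The submitters' processing notes name HISAT2, HTSeq and the GRCm38 build; their versions and settings, and whether strand was used, were not given in the sources used here. The deposited signal values are whole read counts that the authors multiplied by 1 factor per library (0.459 to 1 over the 16 libraries): division by it left whole reads in 100% of values (tolerance 0.001 read). Reads in listed genes numbered 2356990 to 6000033 per library, a number that limits the precision of genes with few reads. Symbols, coordinates, GC content and length (longest transcript) come from GENCODE M21, in which all 831 identifiers were found. Where strand is unknown, overlapping and antisense genes (7 are antisense) cannot be told apart, and near-identical copies are uncertain.

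Because the deposited values are scaled, the log-scale fit planned for such values was used, and not the count model planned for raw counts. Log2(value + 1) of all 16 libraries was fitted with limma 3.58.1 in R 4.3.3, with 1 mean per group, a variance trend, Benjamini-Hochberg adjusted p-values over all 831 genes, a threshold of 0.05, and no filter. Such fold changes understate those of low genes. The trend-removed fit first subtracts each library's linear trend of deviations from the gene means on GC content and log2 length. Intervals of read ratios are exact 95% intervals. The procedure was tested on simulated data.

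The 36 lists, with 103 listed genes of 476, and the members were chosen with earlier results of these data known; 1 further gene is not reported here. Genes were named by a rule: the 10 largest rises and falls that passed with separate groups and a mean of at least 50, leaving out predicted models; the 6 largest of each direction with the trend removed; all listed members of 7 lists; the called members of the other lists, or the member with the smallest p; and the 3 largest interactions of each direction. Others are said to be named after their values were seen, or belong to the seed, mitochondrial or stability sets. Alternatives covered scaling, pseudocount, variance trend, low values, libraries in the fit, the replicate block, the trend, limma-voom and each library left out.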

Additional observations from a re-analysis of the deposited data

Results flagged for a closer look

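In 11 of 150 groups of 4 libraries that were examined for the named genes, 1 library stood apart from the other 3 by Dixon's criterion; chance alone marks about 1 in 20 groups, so several of these may be chance. Among called genes the high library was mdx/miR-133b-/- 4 for Lox (2937 scaled reads) and Il1r1 (1262), mdx 3 for Isca2 (523), and mdx 4 for Runx2 (120.1). Among genes that did not pass, mdx 3 was low for Gli3 (76.7) and high for mt-Nd4 (66846), mdx 4 was low for H2-Aa (1244), and mdx/miR-133b-/- 1 was high for Atp2a2 (3055) and Thbs4 (2525). In the zinc finger genes mdx/miR-133b-/- 1 was high for Gm14326 (5.50) and mdx/miR-133b-/- 4 for Gm14403 (1.32), both on few reads.

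The difference between mdx/miR-133b-/- and mdx was not the same as that between miR-133b-/- and Control in 8 genes, by the interaction in limma's fit of 16 libraries. The list was chosen on mdx/miR-133b-/- against miR-133b-/-, a part of this interaction, so its p-values are those of a selected list. The labels give neither strain nor sex, so genotype cannot be told apart from strain background, or from sex for Gm47283 of the Y chromosome. The Gtf3a call was lost without any one of 6 libraries. The interaction was -7.75 for Gm14325 (adjusted p = 2.55e-08), -6.37 for Gm14326 (3.09e-06), -5.86 for Zfp970 (3.39e-07), -5.85 for Gm14403 (3.09e-06), -3.91 for Gm47283 (0.016), -2.11 for Dbp (0.00641), -1.21 for Gtf3a (0.0479) and 4.23 for Gm8822 (0.00224). In Dbp and the 4 zinc finger genes every mdx/miR-133b-/- library lay below all 12 others. miR-133b-/- 1 was low for Gm8822, at 15 scaled reads where the other 3 libraries of that group had 126 to 207, which lowers the miR-133b-/- side of its interaction.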

How the results depend on the processing

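The count of 162 genes called between mdx/miR-133b-/- and mdx ranged from 49 to 197 when 1 library was left out (the lowest without mdx/miR-133b-/- 4, the highest without library 1 of that group), with 71, 56 and 84 without mdx 1, 3 and 4 and 70 without mdx/miR-133b-/- 3; the cause was not tested. It was 55 with the GC and length trend removed and also 55 with the trend removed and the replicate number as a block. With the replicate block alone it was 120, and the 8 alternatives of scaling, pseudocount, variance trend, low values, libraries and limma-voom gave 128 to 173. Same-numbered mdx and mdx/miR-133b-/- libraries did not deviate together (correlations from -0.23 to -0.00, none over 0.1). Of the mdx libraries, 0 of 4 correlated best with its own number. The numbers are used here as library names, and a shared batch was not tested beyond these correlations and the block. The interaction count of 8 ranged from 7 to 15 over the libraries left out, and was 14 with relative log expression factors, which moved its median over all genes from 0.02 to -0.18, 4 with a minimum mean of 100, 5 with the trend removed, 6 with trend and replicate block, and 7 with the block; the cause was not tested. The difference in the mitochondrial share, 3.74 points, ranged from 1.93 to 5.91 over the libraries left out and was 3.74 (exact p = 0.25) with the replicate block. Of the named genes, 35 were called and 15 of them kept the call in all 19 alternatives; of the 34 not called, 12 changed sign in at least 1. No called gene reversed. The planned count-model alternative on recovered reads was not run, and limma-voom on those reads was run in its place. Reads in listed genes are the only depth known, and genes with few reads have wide intervals.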
